A study of Daphnia magna with 48 samples.

Results

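Unexposed water fleas of the species Daphnia magna, a planktonic crustacean of ponds and a common test animal in ecotoxicology, were compared between 2 sampling times, day 4 and day 2 of an exposure experiment in which they received no metal. The comparison rests on 8 of the 48 whole-body RNA libraries of the series, the 4 control libraries of day 4 and the 4 control libraries of day 2, chosen by their labels for treatment and time. The animals came from a field population, were kept in M4 medium, an artificial fresh water, under a light and dark cycle, and were fed every day. The other libraries came from animals given copper, arsenic or both metals together (the mixture) for 1, 2 or 4 days, with 4 libraries per treatment and day, and from controls of day 1. The sources used here do not give the metal doses, how old the animals were, their clone, or how many were pooled for a library. Since the labels do not tie the 4 libraries of a group to separate cultures, every p-value below measures the spread between libraries only, and that spread may be technical.

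A water flea grows by shedding its cuticle, and in females the moult is coupled to the brood cycle, in which eggs are laid into a brood chamber on the back, develop there and are released before the next moult. Cuticle formation, yolk production and egg provisioning therefore come and go in a growing or breeding animal with no treatment at all. A whole-body library sums all of these tissues, and any embryos the animal carries, so a lower level cannot be told apart from fewer cells of the type that makes the transcript. The untreated change between days is the baseline against which effects of a metal over time are read. The identifiers of the deposited table, such as Dapma7bEVm002622t1, are not paired with gene names in the file, and 0 of 16066 matched the reference gene table, so no function is given for any of them and at most 2 genes that rose and 2 that fell are named per comparison.

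Although the name of the deposited table calls it normalised, it was read as raw counts, since all values are whole and totals differ between libraries. The total count of the 8 libraries ran from 10.8 M to 16.4 M (M, 1e+06 counts), within the 7.93 M to 20.1 M of the series. Totals were 14.1 ± 2.65 M on day 2 and 13.0 ± 1.90 M on day 4 (mean ± SD, n = 4 each). Of 15813 genes tested, 25 to 56 had no count in a day-2 library and 38 to 77 in a day-4 library. The 100 most abundant genes held 28.1 ± 1.22% of the counts on day 2 and 29.5 ± 0.670% on day 4. None of these 3 measures passed the test between the days (two-sided exact permutation test, Benjamini-Hochberg adjusted p 0.514, 0.171 and 0.171, where 4 against 4 libraries cannot go below an unadjusted 0.0286).

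Between day 2 and day 4, 95 of 15813 genes differed in unexposed animals (0.601% of those tested, by edgeR's quasi-likelihood test at a Benjamini-Hochberg adjusted p under 0.05). Of these, 67 were higher on day 4 (0.424%) and 28 were lower (0.177%). At the median the called rises were larger than the called falls, by an amount that differed with the level of the genes. The median rise was 2.55-fold, with a log2 fold change of 1.35 and quartiles of 0.81 and 2.11. The median fall was 1.60-fold, with a log2 fold change of −0.68 and quartiles of −1.07 and −0.52. A change of more than 2-fold was found for 51 called genes (0.323% of those tested), 42 higher and 9 lower. Before adjustment, 1480 genes had a p under 0.05. The median standard error (SE) of a log2 fold change was 0.232, and the median log2 fold change of all tested genes was −0.01.

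**Figure D1:**
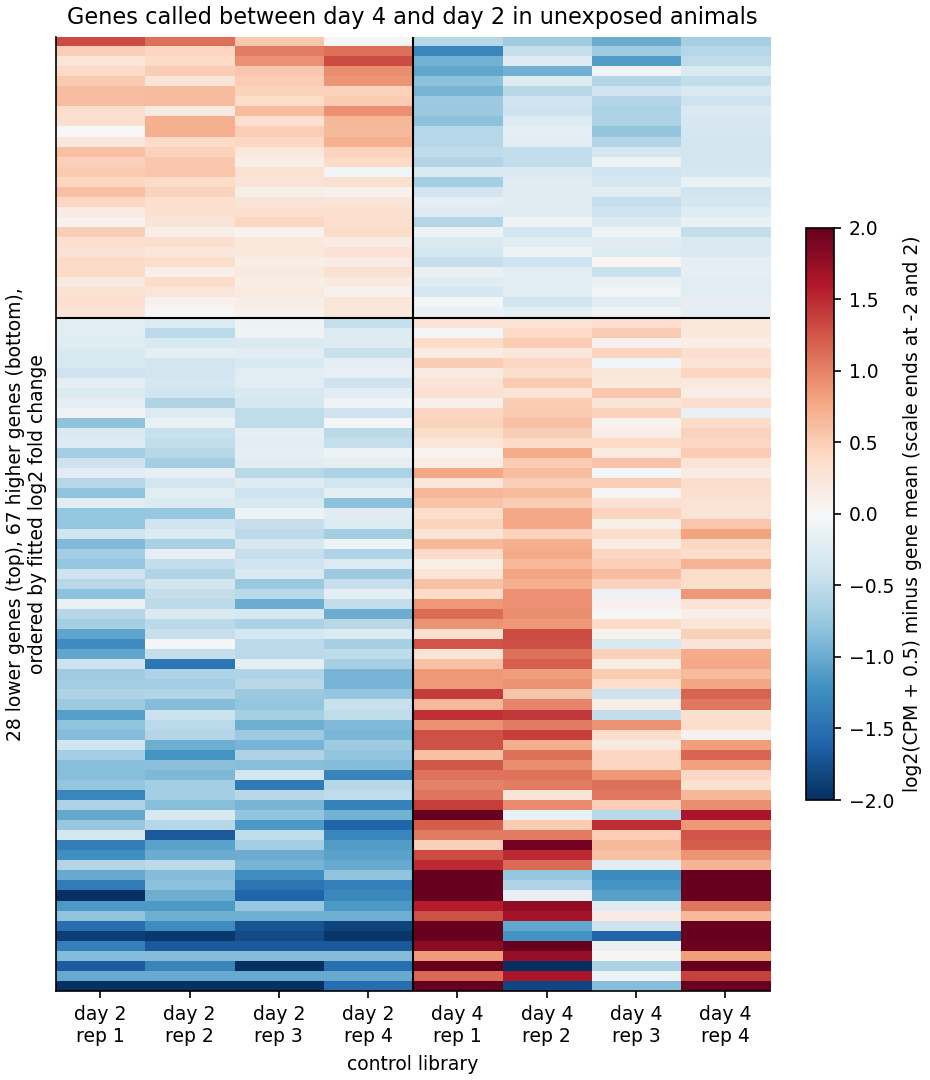
Level of the 95 genes called between day 4 and day 2 in each of the 8 control libraries, as log2(CPM + 0.5) minus the gene's mean over these libraries (CPM, counts per 1e+06 counts of a library). Each row is a gene, ordered from the largest fall (top) to the largest rise (bottom), and the 28 falls show as an even block while several large rises sit in replicates 1 and 4 of day 4.

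Called genes lay at different levels in the 2 directions. Levels are given in CPM, the counts of a gene per 1e+06 counts of a library after TMM scaling. Over the 8 libraries the median mean level was 22.4 CPM for the 67 higher genes and 97.9 CPM for the 28 lower genes. Among the 5258 genes with a series mean under 5 CPM, 14 were higher (0.266%) and 0 were lower. Among the 6597 genes at 5 to 50 CPM, 35 were higher and 10 lower, and among the 3958 genes over 50 CPM both directions had 18 genes (0.455% each). The median log2 fold change of the higher genes was 5.69 under 5 CPM, 1.45 at 5 to 50 CPM and 0.80 over 50 CPM. That of the lower genes was −0.93 at 5 to 50 CPM and −0.66 over 50 CPM. Summed over the list, the higher genes took 0.381 ± 0.0192% of a scaled library on day 2 and 0.738 ± 0.0740% on day 4. The lower genes took 0.564 ± 0.0196% on day 2 and 0.336 ± 0.0143% on day 4. These sums describe genes that the same libraries chose.

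The gene with the largest rise by the naming rule was Dapma7bEVm011709t1. It stood at 0.125 CPM in day-2 replicate 1 and had no count in the other day-2 libraries, and on day 4 it stood at 5.14, 10.8, 0.952 and 5.74 CPM in replicates 1 to 4. All day-4 libraries were above all day-2 libraries, and replicate 3 was the lowest of day 4. The rise rested on 296 counts against 2. After scaling for library size this is a ratio of 167 with a 95% interval of 45.7 to 1382 (exact binomial, counting error only). The fitted rise was 127-fold (log2 fold change 6.99, SE 1.27, edgeR adjusted p 0.00262). No count of it was found in any control library of day 1. In exposed animals of day 1, arsenic replicate 3 had 31 counts of it. That is 2.40 CPM, above the 0.952 CPM of day-4 control replicate 3.

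Dapma7bEVm010197t1 rose in a different way. It was at 0.623, 0.595, 0.699 and 0.584 CPM on day 2. On day 4 replicates 1 and 4 reached 199.5 and 112.3 CPM, while replicates 2 and 3 were at 1.32 and 0.865 CPM. The day-4 libraries all lay above day 2, but by over 100 CPM in 1 pair of libraries and by under 1 CPM in the other. The fitted log2 fold change was 6.95 (SE 1.20, edgeR adjusted p 0.00102). Without replicates 1 and 4 of day 4 it was 0.80, and the adjusted p was 0.929. The call was also lost with limma (adjusted p 0.440) and in fits of the 8 libraries alone (0.0903) or of the 12 controls alone (0.0537), where the log2 fold changes were 4.19, 6.96 and 6.97. Over all alternatives the adjusted p ran from 1.32e-07 to 0.929.

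The largest fall was that of Dapma7bEVm002622t1. Its levels were 285, 247, 166 and 114 CPM on day 2 and 76.9, 69.6, 57.7 and 72.0 CPM on day 4. Day 2 was wide and day 4 narrow, and the groups did not overlap. The fall was 2.94-fold (log2 fold change −1.56, SE 0.28, edgeR adjusted p 0.00143), and it passed the threshold in 18 of 18 alternatives. The mean on day 1 was 138.7 ± 21.1 CPM, between the means of the later days.

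Dapma7bEVm001803t1 had levels of 124, 119, 179 and 190 CPM on day 2 and of 35.3, 63.4, 53.8 and 59.2 CPM on day 4. Each day-4 library was below each day-2 library. The fall was 2.89-fold (log2 fold change −1.53, SE 0.34, edgeR adjusted p 0.0160). Leaving out day-2 replicate 3 or 4 or day-4 replicate 1 gave adjusted p of 0.0551, 0.0750 and 0.101, with log2 fold changes of −1.45, −1.41 and −1.38. Leaving out day-4 replicates 1 and 4 gave 0.274, with a log2 fold change of −1.38 (range over alternatives 0.00120 to 0.274). On day 1 this gene had stood at 14.5 ± 2.57 CPM, so day 4 lay between the low level of day 1 and the high level of day 2. The comparisons of days 1 and 2 and of days 2 and 4 share the day-2 libraries.

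**Figure D2:**
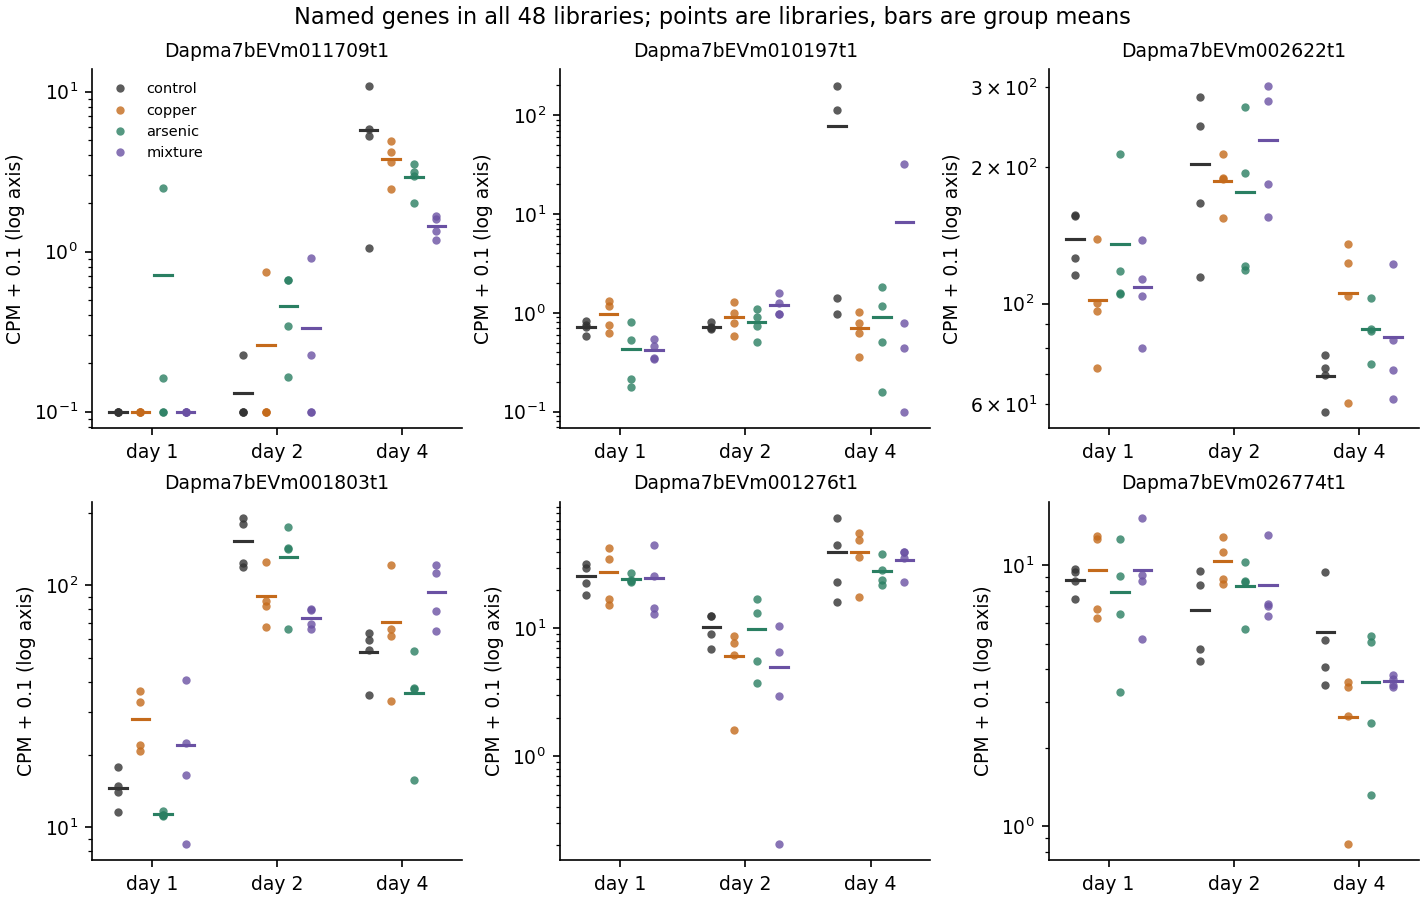
CPM + 0.1 (log axis) of the 6 genes named here in all 48 libraries, by day and treatment. Points are libraries and bars are means of 4, and Dapma7bEVm002622t1 has its lowest group mean in the day-4 controls while Dapma7bEVm010197t1 is high in 2 control libraries and 1 mixture library of day 4.

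The 2 called genes with the smallest adjusted p had moderate and even changes. The first rose from 18.3, 19.6, 19.8 and 15.6 CPM on day 2 to 55.7, 54.5, 43.5 and 46.9 CPM on day 4, 2.74-fold (log2 fold change 1.45, SE 0.16, edgeR adjusted p 6.37e-07). The second fell from 62.3, 63.5, 52.3 and 57.9 CPM to 24.4, 30.6, 27.0 and 30.2 CPM (log2 fold change −1.07, SE 0.12, edgeR adjusted p 6.80e-07). In both, the gap between the days was wider than the spread within either, which a choice by the smallest adjusted p favours. The most abundant called gene stood at 973 ± 87.8 CPM on day 2 and 1690.0 ± 138.8 CPM on day 4, a 1.74-fold rise (adjusted p 0.0437). Of the called genes with a mean of at least 100 CPM on either day, 15 were higher by 1.47-fold to 2.34-fold and 17 were lower by 1.22-fold to 2.94-fold. The most abundant of those 17 stood at 817 ± 118 CPM on day 2 and 406 ± 71.2 CPM on day 4 (2.01-fold, adjusted p 0.0155).

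The 4 day-4 libraries did not contribute alike. For 28 of 28 lower genes the 4 libraries of day 4 all lay below the 4 of day 2, as they did for 3.31% of all tested genes. For 58 of the 67 higher genes they all lay above, as they did for 3.66% of all tested genes. The test that chose these genes used the same libraries, so these counts are descriptive. Of the 67 higher genes, day-4 replicate 1 exceeded the highest day-2 library for 67, replicate 4 for 66, replicate 2 for 65 and replicate 3 for 61. In the same order, 26.4%, 23%, 28.0% and 24.1% of all tested genes did so. Replicate 3 was the lowest day-4 library for 36 of the 67, against 13, 5 and 13 for replicates 1, 2 and 4. The lowest day-4 library was not counted over all tested genes, so these counts have no background share.

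Replicates 1 and 4 of day 4 shared a small set of genes at levels found in neither of the other 2. For 8 of the 67 higher genes both libraries exceeded 3 times the level of replicates 2 and 3, as they did for 0.221% of all tested genes. This set was defined after the values had been seen. Replicate 1 ranged from 26.8 to 199.5 CPM over these genes and replicate 4 from 18.9 to 112.3 CPM. The highest value in replicates 2 and 3 was 8.65 CPM, and the highest on day 2 was 8.47 CPM. Dapma7bEVm010197t1 belongs to this set. In the exposed animals, mixture replicate 1 of day 4 was the highest mixture library of that day for 8 of the 8, at 2.01 to 47.3 CPM. The highest mixture library was not counted over all tested genes, so this count has no background share. Set against the copper and arsenic libraries of day 4, the narrowest case was 5.24 CPM, against 5.08 CPM in the highest copper library. With 8.84 M counts this mixture library was the shallowest of day 4.

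The number of called genes depended on single libraries. Leaving out day-2 replicates 1 to 4 in turn gave 58, 54, 67 and 54 genes. Leaving out day-4 replicates 1 to 4 in turn gave 52, 56, 125 and 72 genes, and only the removal of replicate 3 raised the count. Of the 125 genes called without replicate 3, 85 were among the 95. Without replicates 1 and 4 of day 4 there were 25 genes, 19 higher and 6 lower, and all 25 were among the 95. DESeq2 called 199 genes and limma 106. A fit of the 8 libraries alone called 87, of which 59 were among the 95, and a fit of the 12 controls called 50, of which 43 were.

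Along the first principal component of the 8 libraries, which held 25.9% of the variance, the day-2 libraries lay at −27.9, −24.9, −15.4 and −15.0. Day-4 replicates 1, 2 and 4 lay at 41.9, 37.6 and 17.8, and replicate 3 at −14.2, beside day 2. The second component, with 17.2%, separated day-4 replicate 1 (−41.8) from replicate 2 (37.5). Gene by gene, the median SD of log2 CPM within a group was 0.220 among controls of day 2 and 0.273 among controls of day 4. With copper it went the other way, from 0.269 on day 2 to 0.203 on day 4. It was 0.289 and 0.255 with arsenic and 0.273 and 0.283 in the mixture.

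The genes called in controls were followed in exposed animals of the same days. The fold changes come from separate libraries, but both comparisons were read from 1 model of 48 libraries, so exposed libraries shared in the estimates of spread behind the control calls. Averaged over copper, arsenic and the mixture (24 libraries), 1587 genes were higher on day 4 than on day 2 (10% of those tested) and 1609 were lower (10.2%). Of the 67 genes higher in controls, 56 were called higher in the exposed animals (83.6%) and 0 were called lower. Of the 28 genes lower in controls, 25 were called lower (89.3%) and 0 higher. The fitted change had the direction of the controls for 66 of the 67 and for 28 of the 28, while 50.5% of all tested genes had a fitted change above 0. With no library shared, in a fit of the 8 control libraries and another of the 24 exposed ones, 54 of 61 higher genes (88.5%) were called higher in exposed animals, against 11.8% of all tested genes, and 22 of 26 lower genes (84.6%) were called lower, against 10.1%. These separate control lists made up 0.386% and 0.164% of the tested genes, and 39 of the 61 and 20 of the 26 were among the 67 and the 28. As shares of the exposed lists of the joint model, the 56 made up 3.53% of 1587 genes and the 25 made up 1.55% of 1609. The exposed average has 3 times as many libraries and a smaller median SE, 0.135 against 0.232 in controls, so the lengths of the lists are not a like comparison.

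**Figure D3:**
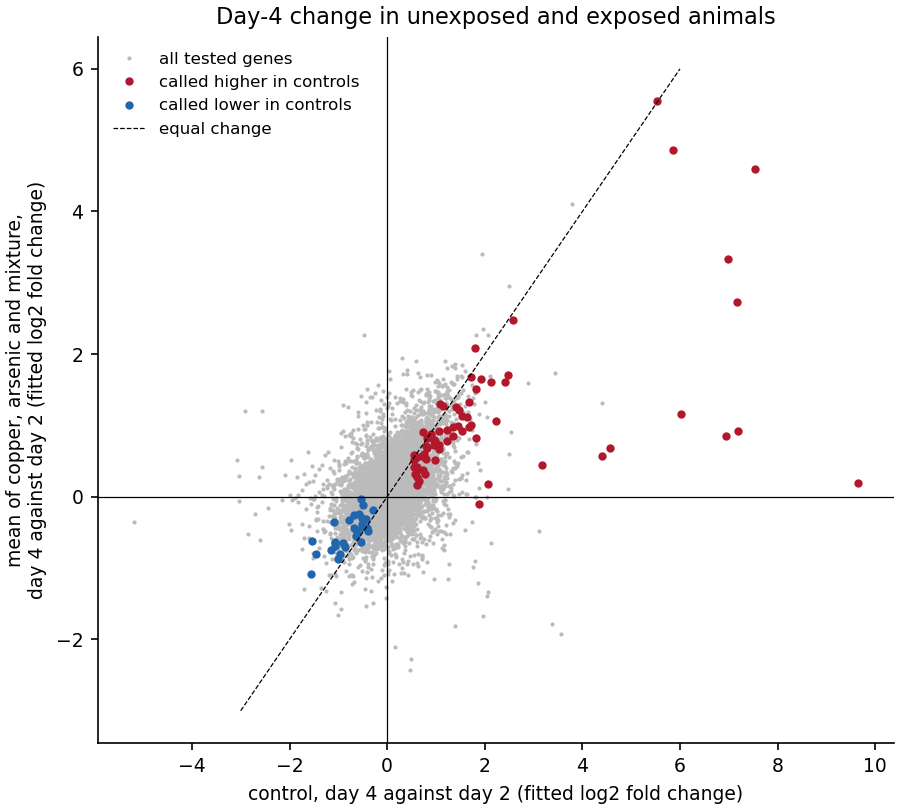
Fitted log2 fold change from day 2 to day 4 in controls (x axis) and averaged over the 3 exposed series (y axis) for 15813 genes, with the 67 genes higher and 28 lower in controls coloured and a dashed line of equal change. All 28 lower genes and 66 of 67 higher genes lie on the same side of 0 in both, and the points far right of the line include the genes carried by replicates 1 and 4.

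The 3 exposed series were also tested one by one. With copper, 30 of the 67 higher genes were called higher (0.816% of all tested genes were) and 9 of the 28 lower genes were called lower (0.411%). With arsenic, 14 of 67 were called higher (0.323%) and 13 of 28 lower (0.228%). In the mixture, 43 of 67 were called higher (6.37%) and 14 of 28 lower (5.62%). No gene of either list was called in the opposite direction in any of the 3 series. The number of genes called in a single series rested on single libraries, with 31 called with copper and 17 with arsenic when replicate 3 of day 2 was left out, and 816 in the mixture without replicate 1 of day 2, against 194, 87 and 1896 with all libraries. The median log2 change of the 67 genes was 0.77 with copper, 0.58 with arsenic and 1.13 in the mixture, and that of the 28 was −0.45, −0.50 and −0.44. Of the 67 genes, 9 were called higher in 3 of 3 exposed series and 18 in none, where 19 and 14774 of all 15813 tested genes were.

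Library values were also set side by side without a model. For 17 of the 67 higher genes the 4 libraries of day 4 were above the 4 of day 2 in each of the 3 exposed series, against 0.563% of all tested genes. For 7 of the 28 lower genes they were all below, against 0.379%. As a sum, the 67 genes took 0.337 to 0.411% of a library on day 2 and 0.580 to 0.659% on day 4 with copper. With arsenic the ranges were 0.334 to 0.460% and 0.563 to 0.643%, and in the mixture 0.327 to 0.382% and 0.592 to 0.689%. The days did not overlap in any of the 3 series. The 28 lower genes took 0.499 to 0.554% on day 2 and 0.363 to 0.407% on day 4 with copper. With arsenic they took 0.455 to 0.614% and 0.331 to 0.350%, and in the mixture 0.454 to 0.534% and 0.350 to 0.379%, again without overlap between the days.

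**Figure D4:**
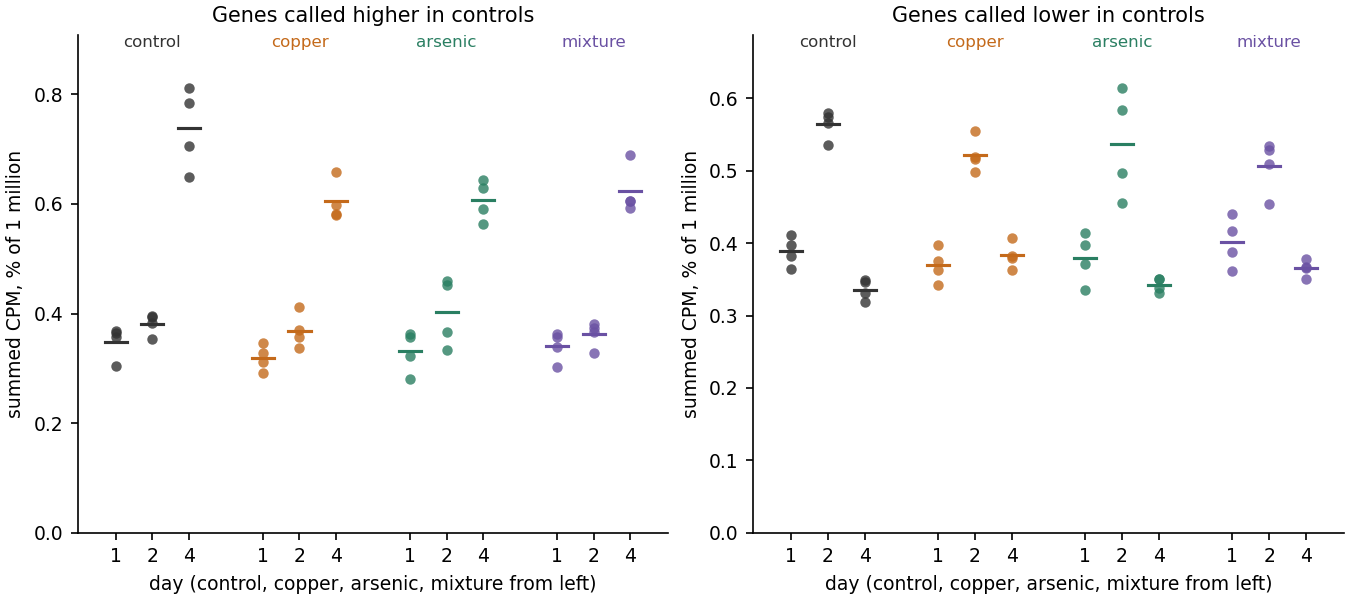
Summed level, as a percentage of a scaled library, of the 67 genes called higher (left) and the 28 called lower (right) in controls, by treatment and day. Points are libraries and bars are means of 4, and in all 4 treatments day 4 lies apart from day 2, above it on the left and below it on the right. The control libraries of these days chose the genes, so the gap in controls follows from the choice.

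Of the 8 genes carried by replicates 1 and 4 of day 4, 0 were called higher in the exposed average, where 10% of all tested genes were, and their median log2 change there was 0.63 against 5.29 in controls. Of the other 59 higher genes 56 were called higher (94.9%), with median log2 changes of 0.88 in exposed animals and 1.15 in controls. The control fold changes entered the choice of these genes, and the exposed fold changes did not. The control libraries did share in the spread behind the exposed calls, and the choice of the 8 favoured genes that vary between control libraries. For Dapma7bEVm010197t1 the SE in the exposed average was 0.72, against a median of 0.135 over all tested genes. These counts of exposed calls are thus not free of the choice.

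The named genes were followed in the exposed series. Among genes with a mean of at least 1 CPM and no overlap between the days in each of the 3 exposed series, Dapma7bEVm011709t1 also had the largest rise in the exposed average (log2 fold change 3.34, SE 0.60, edgeR adjusted p 1.86e-04). On day 4 it stood at 3.68 ± 1.03 CPM with copper, 2.82 ± 0.653 CPM with arsenic and 1.35 ± 0.223 CPM in the mixture, against 5.66 ± 4.03 CPM in controls. On day 2 its highest exposed library had 0.806 CPM, below the lowest exposed library of day 4 at 1.08 CPM. In single series it was called with copper only (edgeR adjusted p 0.0340, against 0.156 with arsenic and 0.123 in the mixture). Among the same genes Dapma7bEVm002622t1 had the second largest fall (−1.09, SE 0.16, adjusted p 5.82e-06), from means of 187, 176 and 230 CPM on day 2 to 105, 87.7 and 84.5 CPM on day 4 in the order copper, arsenic and mixture. In single series Dapma7bEVm002622t1 was called in the mixture only (edgeR adjusted p 8.67e-04, against 0.137 with copper and 0.0751 with arsenic). Dapma7bEVm010197t1 had an adjusted p of 0.437 in the exposed average.

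Dapma7bEVm001803t1 also passed the test between the days in 1 of the 3 exposed series. With arsenic it stood at 131 ± 45.8 CPM on day 2 and at 36.0 ± 15.5 CPM on day 4, a fall with a log2 fold change of −1.86 (SE 0.34, edgeR adjusted p 0.00341). With copper its means were 90.1 ± 24.3 and 70.6 ± 36.9 CPM (adjusted p 0.666), and in the mixture they were 73.6 ± 6.98 and 94.1 ± 27.0 CPM (adjusted p 0.522). The control change minus the exposed average was −0.91 (SE 0.39, adjusted p 0.9997), so a difference between unexposed and exposed animals was not established for this gene.

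The naming rule for the exposed average gave 2 further genes. Dapma7bEVm001276t1 rose 5.13-fold there (log2 fold change 2.36, SE 0.31, edgeR adjusted p 1.13e-06). In controls its levels were 9.04, 6.84, 12.4 and 12.5 CPM on day 2 and 44.8, 73.5, 16.0 and 22.9 CPM on day 4. The control libraries did not overlap, with replicate 3 again the lowest of day 4, but the control change missed the threshold (1.96, SE 0.52, adjusted p 0.0703). Dapma7bEVm026774t1 fell 2.82-fold in the exposed average (SE of the log2 fold change 0.24, adjusted p 1.67e-05). In controls its levels were 4.67, 8.33, 4.19 and 9.45 CPM on day 2 and 5.06, 3.39, 9.34 and 4.00 CPM on day 4, which overlap (−0.29, SE 0.40, adjusted p 0.874). The difference between control and exposed change in this gene was 1.21 (SE 0.46, adjusted p 0.9997).

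Whether the change between days differed in unexposed animals was tested directly as the control change minus the exposed average. EdgeR called 0 of 15813 genes (0%), the lowest adjusted p was 0.182, and 424 genes had a p under 0.05 before adjustment. Limma called 0 and DESeq2 called 5, of which 5 were among the 8 genes carried by control replicates 1 and 4 of day 4. Leaving out control replicate 2 or 3 or mixture replicate 1 of day 4 gave 4, 5 and 4 edgeR calls. The median SE of this difference was 0.268 on the log2 scale. For Dapma7bEVm010197t1 the difference was 6.10 (SE 1.34, edgeR adjusted p 0.248).

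The reverse question was whether genes that exposed animals changed also moved in controls. Of the 1587 genes higher in exposed animals 94.2% had a fitted control change above 0, with a median log2 change of 0.35 in controls and 0.54 in exposed animals. Of the 1609 lower genes 91.3% had a control change below 0, with medians of −0.15 and −0.28. Over all tested genes 49.1% of control changes were above 0. These lists were chosen on exposed libraries, so the exposed medians carry the selection here.

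The same exposed lists were used to score each control library. The level of the 1587 genes minus that of the 1609 genes, as a difference of mean log2 CPM, was −1.61, −1.69, −1.31 and −1.56 in day-2 replicates 1 to 4. It was −0.86, −0.62, −1.39 and −0.85 in day-4 replicates 1 to 4. Replicates 1, 2 and 4 of day 4 lay above the range of day 2 and replicate 3 within it. Controls of day 1 ranged from −2.11 to −1.42. Exposed libraries of day 4, which chose the lists, ranged from −0.97 to −0.70 with copper, −1.30 to −0.94 with arsenic and −1.25 to −0.71 in the mixture. Control replicate 2 of day 4 thus lay above all of them and replicate 3 below all, near the lowest arsenic and mixture libraries. Counted gene by gene, day-4 replicate 2 exceeded the highest day-2 control for 79.3% of the 1587 genes, replicate 4 for 70.6% and replicate 1 for 59.9%, where 28.0%, 23% and 26.4% of all tested genes did so. In replicate 3 the share was 34.7%, against 24.1% of all tested genes. For the 1609 genes, 66.6%, 62.8% and 62% were below the lowest day-2 control in replicates 2, 4 and 1 (29.9%, 22.9% and 29.3% of all tested genes), and 23.2% in replicate 3 (22.2%). The same replicate 3 was below every day-2 library for 28 of the 28 genes called lower in controls. Those genes were chosen with these same libraries, so that count does not measure how far replicate 3 had moved.

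**Figure D5:**
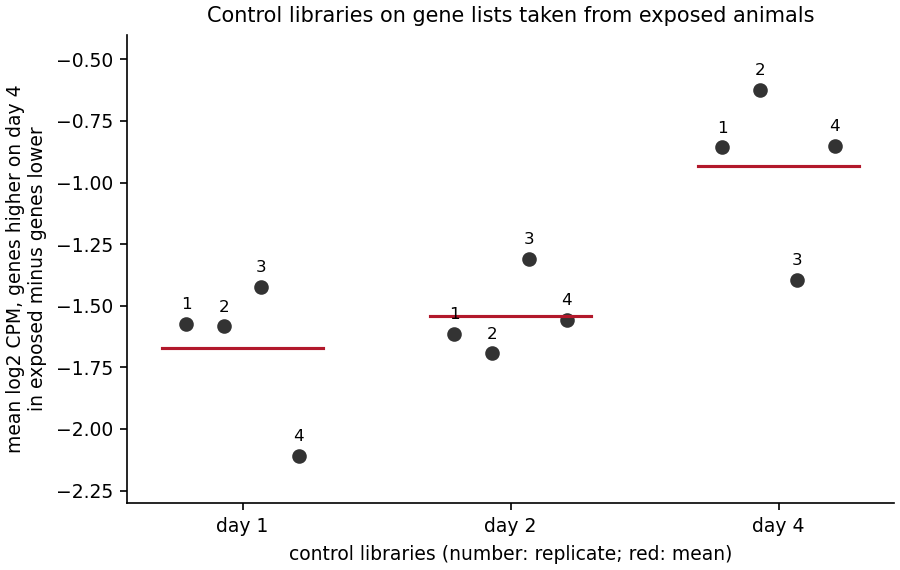
Difference of mean log2 CPM between the 1587 genes higher and the 1609 lower on day 4 in exposed animals, in each of the 12 control libraries. Numbers are replicates and red bars are means of 4, and replicate 3 of day 4 (−1.39) lies within the day-2 range of −1.69 to −1.31.

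Day 1 completes the course. In the exposed series, whose libraries entered the choice of genes only through the shared estimates of spread, the 28 genes lower on day 4 in controls had their highest mean on day 2 for 24 with copper, 23 with arsenic and 16 in the mixture. Among all tested genes 23.7%, 30.7% and 33.2% peaked on day 2 in these series. For 15 of the 28 (53.6%) day 2 was the peak in all 3 series, against 6.86% of all tested genes. Between days 1 and 2, 15 of the 28 were called higher on day 2 in the exposed average (5.60% of all tested genes were) and 1 was called lower. In controls day 2 was the peak for 22 of the 28, with means that share the day-2 libraries of the test.

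The 67 higher genes followed another course. In the exposed series their highest mean was on day 4 for 55 with copper, 55 with arsenic and 57 in the mixture. Among all tested genes 37.0%, 31.9% and 36.8% peaked on day 4 in these series. For 45 of the 67 (67.2%) day 4 was the peak in all 3 series, against 11.6% of all tested genes. Between days 1 and 2 in the exposed average, 15 of the 67 were called higher and 22 lower (5.60% and 6.44% of all tested genes). Its median log2 change over that step was −0.02. In controls the median level of the 67 genes was 15.7 CPM on day 1, 13.8 CPM on day 2 and 32.7 CPM on day 4.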

How the data were processed

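RNA of whole animals was sequenced, and the authors deposited 1 table of counts per transcript identifier for 48 libraries. The tools named in the submitters' processing notes were TopHat2 2.1.1, HTSeq and edgeR, without their roles. Genome build, annotation and the use of strand were not given in the sources used here. The name of the deposited table calls it normalised, but the values were whole numbers with totals that differed by up to 2.53-fold, and they were used as raw counts. Each of its 16066 rows exceeded 1 CPM in at least 3 libraries, so low genes had been removed before deposit. Genes whose reads may be shared with close copies or overlapping neighbours could not be marked without names.

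Tested genes, 15813 in all, had at least 14 counts in 4 or more libraries, which is about 1 CPM in a library of median size (13.3 M), and 253 genes were left out. EdgeR 4.0.16 in R 4.3.3 was used with TMM scaling, 1 model with a mean for each of the 12 groups of the 48 libraries, and the two-sided quasi-likelihood F test, with Benjamini-Hochberg adjustment within each comparison. The SE is the log2 fold change divided by the square root of F. Alternatives used DESeq2 1.42.0 and limma 3.58.1. The fit was tested on simulated data. Each pair of libraries within a control group differed by more than sampling noise (lowest chi-square per degree of freedom 9.60). Reads were not marked as molecules, so a count of 0, which allows 3 counts or 0.178 to 0.292 CPM in these 8 libraries, covers counting error only.

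Named genes were the 2 largest rises and 2 largest falls among called genes with a mean of at least 1 CPM whose libraries did not overlap between the days, in controls and, in each of 3 series, in exposed animals; no gene was called for the difference, so none was named there. The comparison, the lists and the libraries left out were chosen with earlier results of these data known.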

Additional observations from a re-analysis of the deposited data

Results flagged for a closer look

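A library was singled out where its gap to the nearest of the other 3 exceeded Dixon's critical value for 4 samples. Chance alone does this in about 1 of 20 groups, or 1.2 of the 24 examined, and 3 were found. Dapma7bEVm011709t1 had 0.125 CPM in day-2 control replicate 1 and 0 in the other 3 libraries, a matter of 2 counts. Day-4 control replicate 2 had a total of 15.8 M counts, where the other 3 had 11.8 M to 12.3 M. Day-2 control replicate 4, the shallowest of the 8 libraries, had 56 tested genes without a count, where the other 3 had 25 to 27.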

How the results depend on the processing

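The share of control genes called in the same direction in exposed animals stayed between 71.1% and 94.7% for higher genes and between 80% and 100% for lower genes in the alternatives of 1 library or 2 control libraries left out, another scaling, tool or filter, and the block, and was 100% for both when control libraries 1 and 4 and mixture library 1 of day 4 were all left out. Fitting control and exposed libraries separately, also chosen after seeing the data, gave 88.5% and 84.6%. Counts of calls moved more. DESeq2 called 199 genes in controls (141 higher, 58 lower, 81 over 2-fold), 360 with copper, 232 with arsenic and 5 for the difference. A fit of the 12 control libraries gave 50 (34 higher, 16 lower, 30 over 2-fold), and a fit of the 8 arsenic libraries gave 33. Without day-4 control replicates 1 and 4 there were 25 (19 higher, 6 lower, 17 over 2-fold). Without mixture replicate 1 of day 4 as well, an alternative chosen after seeing the data, there were 24 (19 higher, 5 lower, 16 over 2-fold). Leaving out 1 library gave 52 to 125 genes in controls (34 to 97 higher, 11 to 28 lower, 30 to 80 over 2-fold), 2574 to 3416 in the exposed average, 31 to 155 with copper, 17 to 117 with arsenic, 816 to 1969 in the mixture and 0 to 5 for the difference. The cause of these shifts was not tested. The log2 fold changes of the genes named by rule, 4 in controls and 4 in the exposed average, kept their direction in each alternative that gave a value. DESeq2 gave no adjusted p for Dapma7bEVm011709t1 in controls, and the other changes printed for these genes were not recomputed. Same-numbered libraries of days 2 and 4 share only a number: correlations of their deviations ran from −0.14 to 0.0266, and 0 of 4 day-4 libraries correlated best with their own number. With the replicate number as a block 87 genes were called in controls, 85 of them among the 95. The fit of the 8 control libraries alone also called 87, but 59 of them were among the 95, and of the 50 called with the 12 controls 43 were. The 4 libraries of a group limit the precision, with a median SE of 0.232 on the log2 scale in controls.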
